A study of Mus musculus with 4 samples.

Results

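The 7 genes described here serve the uptake of fatty acids, their storage in lipid droplets or their release from them: Lpl, Fabp3, Fabp5, Plin2, Plin3, Dgat1 and Pnpla2. They were chosen by symbol, as 7 of the 16342 genes listed in any of the 4 count tables. Each was read at week 5 against week 0, and each pair was read for detection in the same cells. The cells came from the corpus callosum, the large white matter tract between the cerebral hemispheres, of male C57BL/6 mice labelled as 13 weeks old. At week 5 the mice had received cuprizone, a copper chelator that kills oligodendrocytes and strips myelin, and at week 0 they were not treated, with 2 libraries each. All cells were sorted as live, nucleated and positive for CD11b, an integrin chain of microglia and other myeloid cells, so that cells without it are not represented in either group. The labels name no genetic change. They do not say that the libraries came from separate animals, so the p-values measure only the spread between these libraries, which may be technical. Single cells were captured in droplets, and their transcripts were counted from the 3′ end as unique molecular identifiers (UMIs, 1 per captured molecule).

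Myelin is rich in lipid, and microglia that engulf its debris must take apart, store or export what they ingest. Lipoprotein lipase, the product of Lpl, is secreted and cuts triglycerides in lipoproteins into free fatty acids. Fatty acid binding proteins such as those of Fabp3 and Fabp5 carry the acids through the cytosol. Dgat1 encodes an enzyme that joins the last fatty acid to diacylglycerol to make triglyceride, the perilipins of Plin2 and Plin3 coat the droplets in which it is stored, and the lipase of Pnpla2 (ATGL) begins its breakdown. Lpl is widely used as a marker of microglia that respond to amyloid or demyelination.

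After filtering, 962 and 914 cells at week 5 and 926 and 905 cells at week 0 were used, with 6484047 and 3259863 UMIs at week 5 and 2353156 and 4442246 UMIs at week 0. The median cell held 6134 and 2496 UMIs at week 5 and 1527 and 3919 UMIs at week 0, so depth differed within each group. The highest number of genes in any cell was 3999 and 2996 at week 5 and 2999 and 6615 at week 0, so the tables differ in the largest cells they hold, and no pair of libraries shared more than 2 barcodes. All 15 microglia markers were detected in every library, with summed levels of 30831 and 35996 CPM (UMIs per 1000000 UMIs of the library) at week 5 and 43705 and 52729 CPM at week 0. Markers of other cells were low and uneven. The 9 monocyte markers summed to 152 and 70.9 CPM at week 5, against 70.5 and 22.5 CPM at week 0, with 9 and 7 of them detected at week 5 and 6 in each week 0 library. Fn1, a leading gene of cluster 7 described further down, made up 115 and 10.7 CPM of these sums at week 5, against 4.25 and 0 CPM at week 0. The other 8 markers summed to 37.8 and 60.1 CPM at week 5, against 66.3 and 22.5 CPM at week 0, so that without Fn1 the groups overlapped. The 5 choroid plexus markers, led by Ttr, summed to 1911 and 2060 CPM at week 5, against 816 and 3.83 CPM at week 0. The 8 T or NK cell markers summed to 2.47 and 192 CPM at week 5, with 2 and 8 of them detected, and to 2.12 and 6.08 CPM at week 0, with 1 in each. The 8 oligodendrocyte markers summed to 202 and 148 CPM at week 5, against 116 and 122 CPM at week 0. The part of these cells in the results below was not tested.

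Promoter sequence was at hand for 4 of the 7 genes: Plin2, Plin3, Fabp3 and Pnpla2. Those of Plin2 and Fabp3 are shown, as the promoters of 2 genes that rose with cuprizone. Each runs from 250 bases before to 50 bases after the RefSeq start of transcription in mouse build GRCm38.p6, read on the gene's own strand. Plin2 is taken from chr4:86670010-86670309 on the minus strand and Fabp3 from chr4:130308488-130308787 on the plus strand. Capitals mark the hexamer AGGTCA, read on the opposite strand, to which nuclear receptors of fatty acids and sterols bind.
Plin2: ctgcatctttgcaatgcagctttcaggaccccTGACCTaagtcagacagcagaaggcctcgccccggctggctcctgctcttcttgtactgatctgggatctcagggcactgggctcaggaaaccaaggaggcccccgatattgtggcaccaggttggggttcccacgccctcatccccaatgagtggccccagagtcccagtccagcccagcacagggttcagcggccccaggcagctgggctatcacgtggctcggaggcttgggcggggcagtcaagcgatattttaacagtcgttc
Fabp3: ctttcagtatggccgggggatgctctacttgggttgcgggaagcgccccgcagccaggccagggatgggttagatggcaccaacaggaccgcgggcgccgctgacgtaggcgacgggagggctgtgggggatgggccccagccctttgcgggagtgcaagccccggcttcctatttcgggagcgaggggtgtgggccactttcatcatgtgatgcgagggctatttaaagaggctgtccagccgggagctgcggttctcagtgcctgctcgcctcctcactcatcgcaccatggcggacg
The hexamer stood 218 bases before the start of Plin2, and the window of Fabp3 held none of the 4 motifs searched. These were AGGTCA, its direct repeat AGGTCANAGGTCA (the element of PPAR and RXR), the PU.1 core GAGGAA and the TATA box TATAAA, each on both strands. The direct repeat contains the single hexamer. AGGTCA occurred in 16.3% of 32851 RefSeq promoter windows of the same length, GAGGAA in 28.3%, TATAAA in 13.6% and the direct repeat in 0.0396%. Of the 4 windows, that of Plin2 held AGGTCA and that of Plin3 held GAGGAA and no other match was found, which says only that those letters are not in these windows.

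Lipoprotein lipase and the fatty acid binding proteins rose the most after cuprizone, the droplet coat gene Plin2 rose less, and the triglyceride-forming Dgat1 and the lipase Pnpla2 did not pass the test. UMIs were summed over all sorted cells of a library and tested with edgeR's quasi-likelihood test across 11247 genes, with Benjamini-Hochberg adjustment and a threshold of 0.05. Of the 7 genes, 4 rose and 0 fell. Among all genes tested, 274 rose (2.44%) and 28 fell (0.249%). Gene levels over all cells of a library are CPM of these sums scaled by the trimmed mean of M-values (TMM), while levels in or outside single clusters are unscaled CPM.

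Lpl lies at chr8:68880491-68907448 on the plus strand (GRCm38, GENCODE M21). It stood at 773 and 230 CPM in the week 5 libraries, against 17.6 and 15.98 CPM in the week 0 libraries. Both week 5 libraries were far above both week 0 libraries, and they also differed from each other. The means were 502 ± 384 CPM at week 5 and 16.8 ± 1.18 CPM at week 0 (SD, n = 2 each). The log2 fold change was 4.91 ± 0.55 (SE), a 29.98-fold difference, with an edgeR adjusted p of 0.00177. Without week 5 replicate 1 the fold was 13.8, and without week 5 replicate 2 it was 47.6, so that each of these libraries moved the size of the rise but not its call.

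Fabp5, the epidermal type fatty acid binding protein, lies at chr3:10012548-10016607 on the plus strand. It stood at 513 and 88.3 CPM at week 5, against 1.57 and 2.73 CPM at week 0, where these levels rest on 4 and 13 UMIs. The groups did not overlap. Its log2 fold change was 7.02 ± 0.87 (SE) with an edgeR adjusted p of 0.00287. The fold was 130 over all libraries, 38.0 without week 5 replicate 1 and 227 without week 5 replicate 2. Fabp3, the heart type protein, lies at chr4:130308595-130315463 on the plus strand. It stood at 60.4 and 9.97 CPM at week 5, against 1.57 and 0.631 CPM at week 0, where these levels rest on 4 and 3 UMIs. Again the week 5 libraries were both higher, by amounts that differed. For Fabp3 the log2 fold change was 5.17 ± 0.91 (SE) with an edgeR adjusted p of 0.0164, and the fold was 36. Leaving out the week 5 libraries 1 at a time gave folds of 9.65 (replicate 1 left out) and 62.3 (replicate 2 left out), and doing so for the week 0 libraries gave 54.7 and 22.6. With limma-voom in place of edgeR, Fabp3 had an adjusted p of 0.221 and was not called. Both genes passed the filter on low counts, at about 2.6 CPM, through the week 5 libraries, so a difference was built into their passing. Fabp3-ps1 and Fabp5l2 are annotated processed pseudogenes among which reads of the parent genes could be split, and Fabp3 overlaps Zcchc17 and Gm10570 on the other strand. Zcchc17 had a log2 fold change of 0.12 ± 0.31 (SE; edgeR adjusted p of 0.927).

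Plin2, the perilipin found on droplets of most cells, lies at chr4:86648386-86670060 on the minus strand. It stood at 104 and 48.7 CPM in the week 5 libraries, against 22.7 and 21.4 CPM in the week 0 libraries. The week 0 libraries were close together and both week 5 libraries lay above them. The log2 fold change was 1.80 ± 0.33 (SE), a 3.49-fold difference, with an edgeR adjusted p of 0.0197. It was 2.21-fold without week 5 replicate 1, and the call held. Plin3, a perilipin that moves from cytosol to young droplets, lies at chr17:56277476-56292873 on the minus strand. Its levels were 31.1 and 13.0 CPM at week 5, against 8.63 and 11.6 CPM at week 0. The groups did not overlap, but week 5 replicate 2 was close to week 0 replicate 2. Its log2 fold change of 1.13 ± 0.40 (SE) did not pass (edgeR adjusted p of 0.213), although without week 5 replicate 2 it was 1.63 with an adjusted p of 6.99e-05.

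Dgat1 lies at chr15:76502015-76511953 on the minus strand. It stood at 12.9 and 12.4 CPM at week 5, against 14.5 and 11.8 CPM at week 0, so the groups overlapped. The log2 fold change was -0.04 ± 0.28 (SE; edgeR adjusted p of 0.976), and its sign depended on the setting. Pnpla2 lies at chr7:141455198-141460743 on the plus strand. It stood at 67.6 and 53.2 CPM at week 5, against 32.5 and 44.6 CPM at week 0. Both week 5 libraries were above both week 0 libraries by a small margin. The log2 fold change of 0.64 ± 0.23 (SE) did not pass (edgeR adjusted p of 0.237), and without week 5 replicate 2 it was 0.83 with an adjusted p of 0.0194. Both week 5 libraries exceeded both week 0 libraries in 6 of the 7 genes and in 21.0% of all genes tested.

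**Figure D1:**
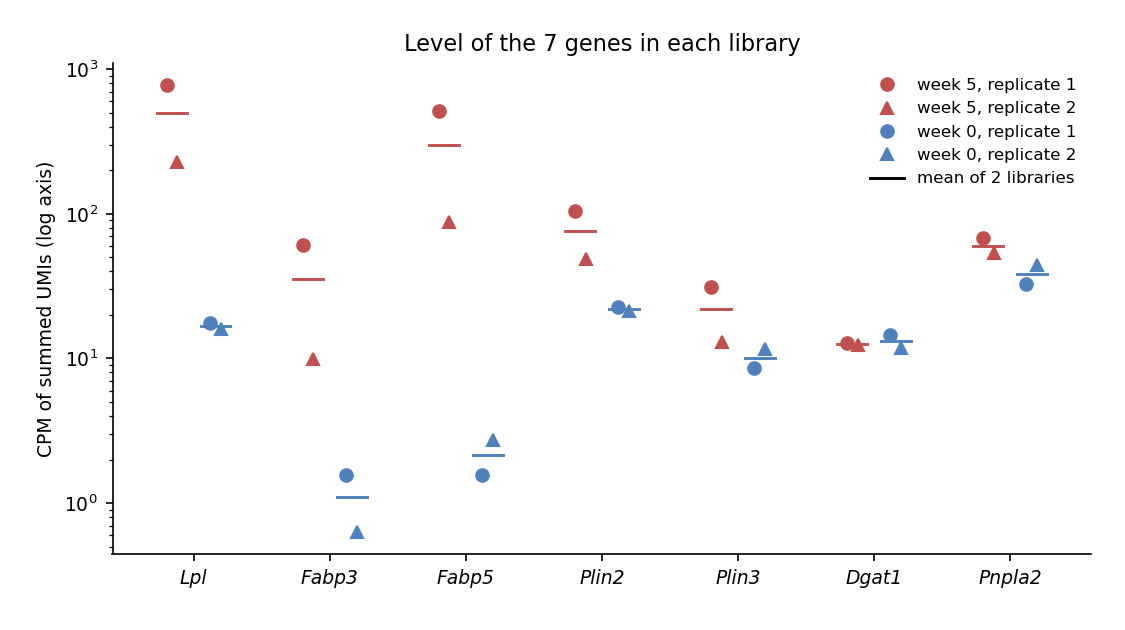
Level of each of the 7 genes in each library, as CPM of the UMIs summed over all cells used, on a log axis, with week 5 left of week 0, circles for replicate 1, triangles for replicate 2 and bars for the mean of 2 libraries. Lpl, Fabp3, Fabp5 and Plin2 lie well apart between the groups, and Dgat1 overlaps at 11.8 to 14.5 CPM.

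None of the related genes of the pathway passed the test beside these 4. The 122 symbols of 7 related lists, 79 of which passed the filter on low counts, gave 0 genes past the threshold in either direction by edgeR. At an unadjusted p under 0.05 there were 9 of 79 (11.4%), beside 1545 of all 11247 genes (13.7%). DESeq2 and limma-voom called 0 of them too. The median log2 fold change of the 79 was 0.06, against -0.01 over all genes tested. The lists were set with earlier results of these data known.

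Among the partners and controllers of lipoprotein lipase, 6 of 11 genes were tested and 0 rose or fell, with a median log2 fold change of -0.18. Sort1, a sorting receptor, had 102 and 97.0 CPM at week 5, against 153 and 122 CPM at week 0. Sel1l, which helps lipoprotein lipase to leave the endoplasmic reticulum, had 92.1 and 87.7 CPM at week 5, against 117 and 113 CPM at week 0. Both were lower in both week 5 libraries without passing the test (edgeR adjusted p of 0.404 and 0.513). Apoc2, the activator of the enzyme, is named after its values were seen: it had 81.6 and 16.3 CPM at week 5, against 18.0 and 0 CPM at week 0. The untreated libraries differed so widely that the groups overlapped, and its edgeR adjusted p was 0.265. Apoc2 passed in 6 of 14 alternative settings, among them microglia-like cells alone, the analysis without week 0 replicate 1 and the one without week 5 replicate 2.

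Of the 22 genes of fatty acid uptake, binding and activation, 8 were tested and 0 rose or fell. Dbi, the acyl-CoA binding protein, had 195 and 80.4 CPM at week 5, against 86.7 and 74.9 CPM at week 0. Acsl4, which activates long polyunsaturated acids, had 67.0 and 62.0 CPM at week 5, against 67.1 and 60.6 CPM at week 0. Dbi was apart in week 5 replicate 1 alone, and Acsl4 overlapped throughout (edgeR adjusted p of 0.371 and 0.98). In the list of triglyceride and cholesteryl ester synthesis, 10 of 16 genes were tested and 0 passed. Soat1, which makes cholesteryl ester, had 233 and 163 CPM at week 5, against 115 and 122 CPM at week 0. Lpin2, a phosphatidate phosphatase, had 125 and 141 CPM at week 5, against 154 and 188 CPM at week 0. These 2 differed in opposite directions, and neither passed (edgeR adjusted p of 0.185 and 0.576).

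The list of droplet coat and assembly factors had 10 of 18 genes tested, 0 past the threshold and a median log2 fold change of 0.05. Hsd17b11, a droplet-bound dehydrogenase, had 163 and 143 CPM at week 5, against 136 and 158 CPM at week 0. Aup1, which sits on droplets and in the endoplasmic reticulum, had 154 and 134 CPM at week 5, against 122 and 157 CPM at week 0. Both overlapped. Of 11 lipolysis genes, 8 were tested and 0 passed. Lipa, the acid lipase of lysosomes, had 182 and 101 CPM at week 5, against 117 and 121 CPM at week 0, and Abhd6, a monoacylglycerol lipase, had 80.3 and 78.0 CPM at week 5, against 115 and 128 CPM at week 0. Mgll, the main monoacylglycerol lipase, is named after its values were seen, at 51.0 and 56.2 CPM at week 5, against 84.3 and 97.98 CPM at week 0. Its log2 fold change of -0.77 ± 0.20 (SE) was short of the threshold (edgeR adjusted p of 0.0905).

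Of 29 genes of beta-oxidation 26 were tested and 0 passed, with a median log2 fold change of 0.13. Hadha, of the mitochondrial trifunctional protein, had 122 and 96.4 CPM at week 5, against 101 and 118 CPM at week 0, and Acox3, a peroxisomal oxidase, had 91.7 and 86.8 CPM at week 5, against 98.8 and 97.1 CPM at week 0. Echs1, a mitochondrial enoyl-CoA hydratase named after its values were seen, had 131 and 90.7 CPM at week 5, against 61.2 and 58.2 CPM at week 0, with a log2 fold change of 0.90 ± 0.23 (SE; edgeR adjusted p of 0.0834). Of 15 lipid-sensing nuclear receptors and partners, 11 were tested and 0 passed. Mlxipl, the carbohydrate response factor ChREBP, had 133 and 182 CPM at week 5, against 224 and 137 CPM at week 0, and Tfe3, a factor of lysosomal genes, had 129 and 165 CPM at week 5, against 173 and 184 CPM at week 0. The receptor Rxrg, named after its values were seen, had 7.92 and 3.02 CPM at week 5, against 0 and 0.841 CPM at week 0 (edgeR adjusted p of 0.0892). How many genes of these lists passed depended on which library was left out, and so did the number of all genes called.

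**Figure D2:**
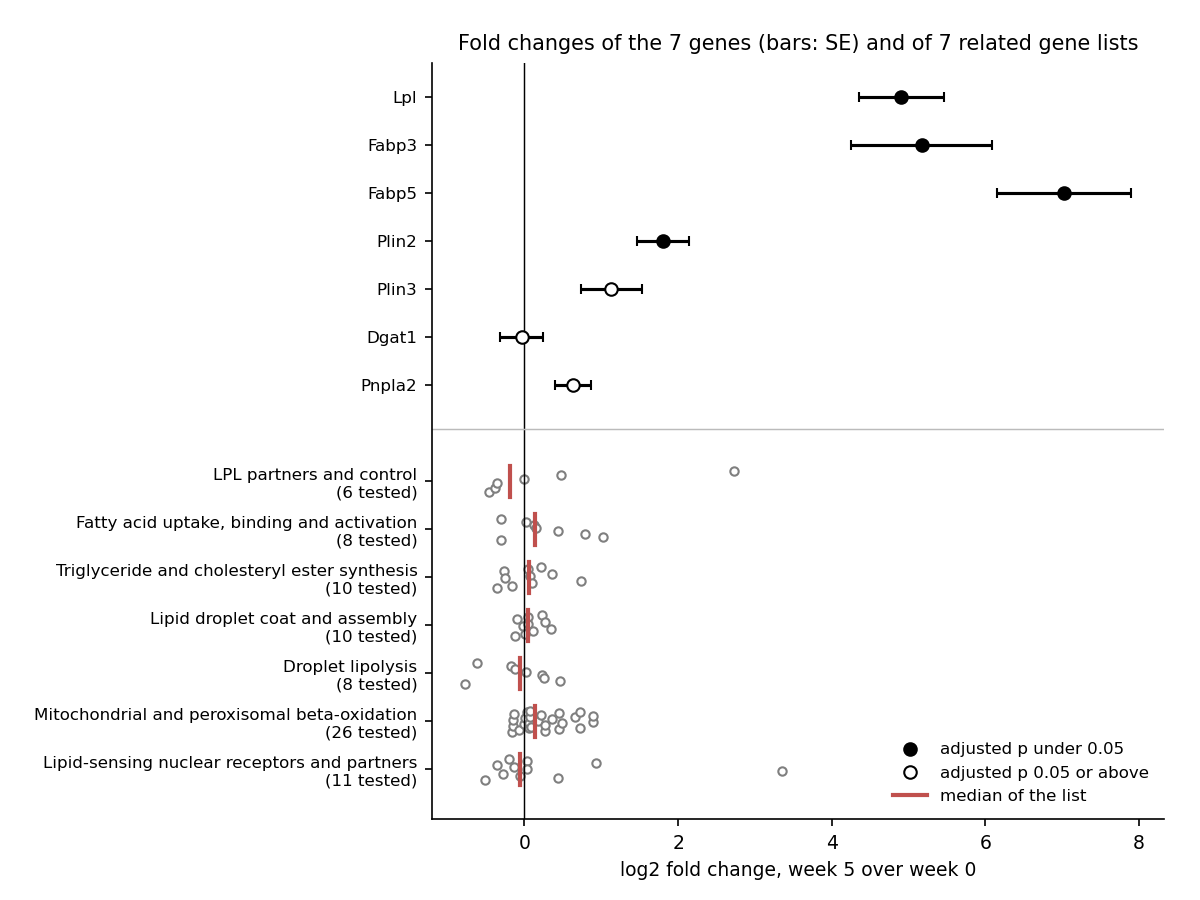
Log2 fold change, week 5 over week 0, of the 7 genes with its SE (top) and of each tested gene of 7 related lists (below), with the median of each list as a red bar. Lpl, Fabp3, Fabp5 and Plin2 are filled as past the threshold, and the list medians lie between -0.18 and 0.13.

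At equal depth, cells with a UMI of Lpl, Fabp3, Fabp5, Plin2 or Pnpla2 were more frequent in both week 5 libraries than in either week 0 library, but before depths were made equal the groups overlapped for Pnpla2. To compare cells of unlike depth, each cell was thinned once at random to 1000 UMIs, which left 901 and 809 cells at week 5 and 781 and 835 cells at week 0, and left out 61 and 105 shallower cells at week 5 and 145 and 70 at week 0. A UMI of Lpl was found in 20.8% (95% exact binomial interval 18.2% to 23.6%) and 11.9% (9.72% to 14.3%) of week 5 cells, against 1.92% and 2.04% of week 0 cells. Fabp5 was found in 13.7% and 4.70% of cells at week 5 and in 0% and 0.24% at week 0. Plin2 was found in 8.10% and 5.69% at week 5 and in 2.18% and 2.63% at week 0. The intervals cover counting error only. Fabp3 was found in 2.33% and 0.99% of cells at week 5 and in none of the 781 and 835 cells at week 0, which allows shares of up to 0.384% and 0.359% (3 counts of the cells, with exact binomial upper limits of 0.471% and 0.441%). Pnpla2 was found in 6.22% and 4.70% at week 5 and in 2.82% and 3.47% at week 0. For each of these 5 genes both week 5 libraries lay above both week 0 libraries. The exact two-sided permutation p was 0.333 for each, the smallest that 2 libraries against 2 can give. How many of all genes behave in this way in thinned cells was not computed, so the count of 5 has no background beside it. Plin3 (2.44% and 0.99% at week 5, 0.38% and 1.08% at week 0) and Dgat1 (1.22% and 1.48% at week 5, 1.28% and 1.44% at week 0) overlapped.

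Before thinning, Lpl was found in 37% and 21% of cells at week 5 and in 2.59% and 5.75% at week 0, and Fabp5 in 26.4% and 7.77% at week 5 and in 0.432% and 1.33% at week 0. Plin2 was found in 28.2% and 13.5% at week 5 and in 5.51% and 9.83% at week 0, and Fabp3 in 14.97% and 2.63% at week 5 and in 0.432% and 0.331% at week 0. Pnpla2 was found in 26.0% and 15.8% at week 5 and in 7.88% and 19.2% at week 0, so that its groups overlapped, as did those of Plin3 and Dgat1. Free RNA in the droplets can place a UMI in a cell that does not make the transcript. Cells that led with the neutrophil and lymphocyte genes S100a9, S100a8, Ms4a4b and Nkg7 (cluster 12) served as a measure of it. In the 23 thinned week 5 cells of that cluster, with a median of 6114 UMIs before thinning, Lpl was found in 0, Fabp5 in 1 and Plin2 in 5. A count of 0 in 23 cells allows a share of up to 13.0% (3 counts), with an exact upper limit of 14.8%. The share of Lpl in week 5 replicate 1 (20.8%) lies above both limits, and that in week 5 replicate 2 (11.9%) lies below them. The 23 cells pool the libraries, with 6 from week 5 replicate 1 and 17 from week 5 replicate 2. The limits therefore do not hold for replicate 1 alone. The 1 cell with Fabp5 is a share of 4.35%, with an exact interval of 0.11% to 21.9% that covers the shares of Fabp5 in both week 5 libraries. Fabp3 and Pnpla2 were found in 0 of the 23 cells, and their week 5 shares lie below the limits. This measure is therefore too coarse to set the shares of Lpl, Fabp5, Fabp3 and Pnpla2 apart from free RNA. The 5 cells with Plin2 are a share of 21.7%, with an exact interval of 7.46% to 43.7%. That share lies above those of Plin2 in both week 5 libraries, and whether these cells make Plin2 was not tested. In the 20 thinned week 5 cells of cluster 13, led by Ttr, Lpl was found in 1, Fabp5 in 3 (15%) and Plin2 in 0. In the 12 of the oligodendrocyte-like cluster 14 each was found in 0. Whether the cells of these clusters make the transcripts was not tested. In the microglia-like clusters 2 and 6, which hold 31 and 42 thinned week 5 cells, Lpl was found in 0 cells of each, which allows up to 9.68% and 7.14% (3 counts; exact upper limits of 11.2% and 8.41%).

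Single cells reached high counts of Lpl and Fabp5 and not of Dgat1. The richest cell held 119 UMIs of Lpl in week 5 replicate 1 and 37 in week 5 replicate 2, and 76 and 21 UMIs of Fabp5. No cell of any library held more than 2 UMIs of Dgat1. Of 356 and 192 cells with Lpl, 36 and 21 held 50% of its 4199 and 761 UMIs in the week 5 libraries. Of 254 and 71 cells with Fabp5, 36 and 9 held 50% of its 2786 and 292 UMIs. For Dgat1 30 and 17 cells of 65 and 37 held 50% of only 70 and 41 UMIs. The number of cells that hold 50% thus depends on the UMI total, and it does not rank the genes.

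Clusters were formed without the 7 genes and without the related lists, so that neither shaped them, and they are given as a description with no test. Of 14 clusters, 8 were microglia-like by the fixed markers. Cluster 7, led by Spp1, Fabp5, Apoc4, Apoc1, Cst7, Gpnmb and Igf1, is left unnamed because the monocyte marker Fn1 stood among its 10 leading genes with 0 microglia markers. Its summed microglia markers were nevertheless 21841 CPM, against 307 CPM for the next class. It held 179 and 32 cells of the week 5 libraries and 1 and 0 cells of the week 0 libraries, so it allows no comparison between the groups. These were deep cells, with a median of 14259 UMIs in week 5 replicate 1 and 5210 in week 5 replicate 2. Of the 179 cells of week 5 replicate 1, 76 had no more than 2996 genes, the highest number in any cell of week 5 replicate 2.

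In cluster 7 the 2 week 5 libraries stood close together in the genes that rose. They stood further apart there in Spp1 (2757 and 5172 CPM), Lgals3 (314 and 980 CPM) and Plin3 (33.2 and 45.5 CPM). Lpl was at 1196 and 1147 CPM of all UMIs there, Fabp5 at 1003 and 1025 CPM, Fabp3 at 113 and 106 CPM, and Plin2 at 148 and 152 CPM. Over all cells, by the same unscaled measure, Lpl was at 648 and 233 CPM and Fabp5 at 429.7 and 89.6 CPM in these libraries. The cluster made up 18.6% of cells and 38.6% of UMIs in week 5 replicate 1 and 3.50% of cells and 6.07% of UMIs in week 5 replicate 2. Its cells held 90.1% and 69.5% of the Fabp5 UMIs and 85.98% and 63.6% of the Fabp3 UMIs of the week 5 libraries. They held less of Lpl (71.3% and 29.8%) and of Plin2 (65.7% and 18.6%). For Pnpla2 (36.5% and 6.25%) the share was close to that of all UMIs, and for Dgat1 (31.4% and 2.44%) it was lower in both.

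Outside cluster 7 Lpl was still at 302 and 174 CPM at week 5, against 19.2 and 17.1 CPM at week 0. Fabp5 was at 69.1 and 29.1 CPM there at week 5 and at 1.70 and 2.93 CPM at week 0. Plin2 was at 48.7 and 42.8 CPM at week 5 and at 24.7 and 23.0 CPM at week 0. In microglia-like cells alone, which exclude cluster 7, the same 4 genes rose by edgeR's quasi-likelihood test with Benjamini-Hochberg adjustment. Lpl was 15-fold higher there (adjusted p of 3.37e-12), Fabp5 20.3-fold (adjusted p of 2.29e-08), Fabp3 11-fold (adjusted p of 0.00215) and Plin2 2.01-fold (adjusted p of 0.00842). The largest cluster among these cells differed between libraries. It was cluster 5 (224 of 724 cells) in week 5 replicate 1, cluster 1 (277 of 794) in week 5 replicate 2, cluster 1 (519 of 896) in week 0 replicate 1 and cluster 2 (545 of 810) in week 0 replicate 2. Of the 1204 and 534 Lpl UMIs outside cluster 7 at week 5, 737 and 284 lay in the microglia-like cluster 8. That cluster had only 6 and 3 week 0 cells. The 15-fold difference is therefore not a measure of a rise in every microglia-like cluster.

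The genes also differed in where they peaked at week 5. Lpl was highest in cluster 8, a microglia-like cluster of 84 and 82 week 5 cells led by the chemokine and early response genes Ccl4, Ccl2, Egr1, Ccl3 and Il1b, at 2048 and 1416 CPM. At the finer Leiden resolution of 2, these chemokine genes led a microglia-like cluster of 26 and 15 week 5 cells. There Lpl and Fn1 were leading genes of another cluster, unnamed, with 60 and 75 week 5 cells. The name and leading genes of the cluster richest in Lpl are thus given for resolution 1 only. Fabp5 was lower in cluster 8 than in cluster 7 in both libraries, at 314 and 105 CPM, and so was Fabp3, at 36.1 and 14.96 CPM. In both week 5 libraries together, Lpl was found in 51.6% of the thinned cells of cluster 8 and 52.1% of those of cluster 7. Fabp5, pooled in the same way, was found in 10.8% of cluster 8 and 54.5% of cluster 7. In cluster 5, led by Ly9, H2-D1 and ribosomal protein genes, Lpl was at 201 and 263 CPM at week 5, and the 11 and 8 week 0 cells of that cluster had 262 and 287 CPM. In cluster 3 Lpl was at 52.9 and 64.3 CPM at week 5, and the 47 and 23 week 0 cells had 9.91 and 94.2 CPM, from 3 and 11 UMIs. In neither cluster were both week 5 libraries above both week 0 libraries. In cluster 1 they were, at 168 and 64.6 CPM at week 5, against 10.3 and 0 CPM at week 0. That cluster held 159 and 277 cells at week 5 and 519 and 93 at week 0. They were also above in cluster 8, where the 6 and 3 week 0 cells had 158 and 0 CPM. In clusters 2 and 4 the groups overlapped, and in cluster 6 both week 5 libraries were below both week 0 libraries. The values of cluster 6 rest on 1 and 0 UMIs in 34 and 8 week 5 cells and on 6 and 4 UMIs at week 0. So few UMIs give no direction. Plin2 was also high in cluster 10, the border-associated macrophage-like cells, at 82.3 and 133 CPM at week 5, while Dgat1 was at 5.05 to 14.1 CPM in each week 5 library of clusters 3, 7 and 8.

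**Figure D3:**
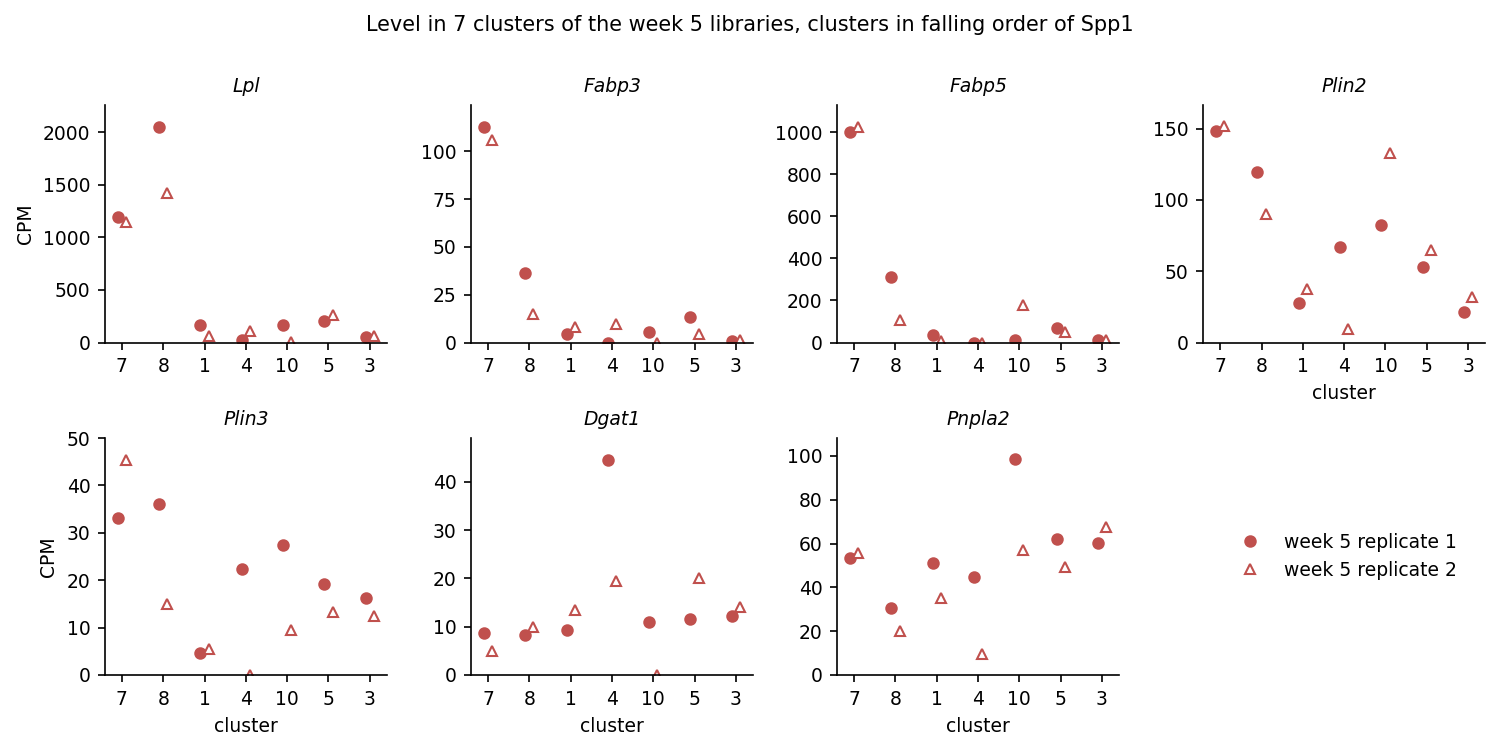
Level of each gene, as CPM of all UMIs, in the 7 clusters with at least 20 cells in both week 5 libraries, in falling order of Spp1 from left to right, with filled circles for replicate 1 and open triangles for replicate 2. Fabp3 and Fabp5 peak in cluster 7, Lpl in cluster 8 (2048 and 1416 CPM), and Pnpla2 in neither.

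Co-detection was read in thinned cells and is a description, since cells of 1 library are not replicates. A pair was counted in a library where at least 20 cells held each gene, which left 6 of the 21 pairs in both week 5 libraries. In 3 of the 6 the second gene was found more often in cells with the first than in cells without it in both libraries. Fabp5 was found in 33.7% of the 187 cells with Lpl and 8.40% of the cells without it in week 5 replicate 1, and in 17.7% of 96 cells and 2.95% in week 5 replicate 2. Plin2 was found in 12.8% of cells with Lpl and 6.86% without it in week 5 replicate 1, and in 15.6% and 4.35% in week 5 replicate 2. With Fabp5, Plin2 was found in 15.4% of cells and without it in 6.94% in week 5 replicate 1, and in 13.2% and 5.32% in week 5 replicate 2.

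The 3 pairs with the lipase gene Pnpla2 did not do so in both libraries. Pnpla2 was found in 6.42% of cells with Lpl and 6.16% without it in week 5 replicate 1, and in 2.08% and 5.05% in week 5 replicate 2. Among cells with Plin2 it was found in 2.74%, and among those without in 6.52%, in week 5 replicate 1, and in 4.35% and 4.72% in week 5 replicate 2. The values for Plin2 rest on 2 cells with both genes in each library. Pnpla2 was found in 4.07% of cells with Fabp5 and in 6.56% without it in week 5 replicate 1, and in 5.26% and 4.67% in week 5 replicate 2. In week 5 replicate 2 the values for Lpl and for Fabp5 also rest on 2 cells with both genes each. Fabp3 and Fabp5 could be counted together in week 5 replicate 1 alone, where 12 of 21 cells with Fabp3 held Fabp5 (57.1%, against 12.6% of the other cells).

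Cluster 7 moved with these values. Without its cells, Plin2 was still found more often with Lpl, in 14.0% against 4.77% of cells without it in week 5 replicate 1 and in 12.5% against 4.30% in week 5 replicate 2. Fabp5 was found in 12.9% of cells with Lpl and 2.54% without it in week 5 replicate 1, and week 5 replicate 2 held too few. Of 28 cells with Fabp5 outside cluster 7 in week 5 replicate 1, 0 held Plin2, against 6.20% of the others. So few cells cannot tell these shares apart. Depth moved with detection as well before thinning: the median cell with Lpl held 9360 and 4954 UMIs in the week 5 libraries, and the median cell without it 4962 and 1911 UMIs. The part of depth that thinning does not remove was not tested.

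Counted over all 7 genes, 61.4% and 75.6% of thinned week 5 cells held none of them, against 91.8% and 89.3% of week 0 cells. At least 3 of the 7 were found in 26 and 8 cells at week 5 and in 0 and 1 cells at week 0. Lpl, Fabp5 and Plin2 together were found in 8 and 4 week 5 cells and in 0 week 0 cells of either library.

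**Figure D4:**
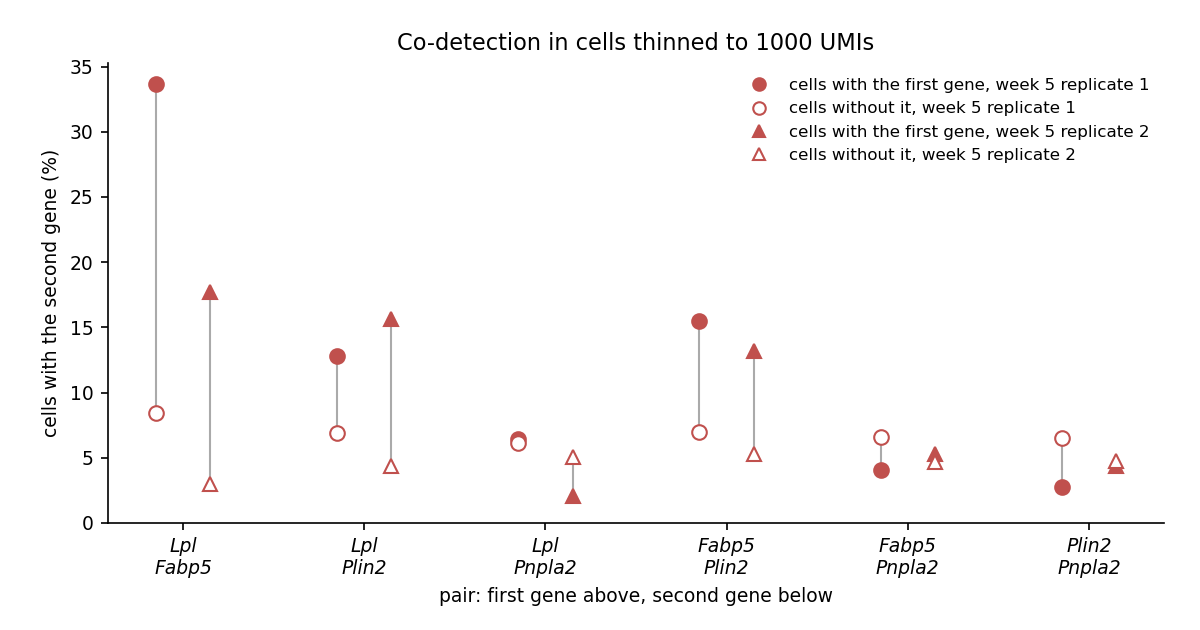
Share of thinned week 5 cells with the second gene of a pair, among cells with the first gene (filled) and without it (open), for the 6 pairs counted in both week 5 libraries (circles, replicate 1; triangles, replicate 2). The filled points stand above the open ones in both libraries for Lpl and Fabp5, Lpl and Plin2, and Fabp5 and Plin2, and not for the pairs with Pnpla2.

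Cells with Lpl also differed from other week 5 cells in the partner genes. Spp1, which encodes osteopontin, was found in 42.2% of thinned cells with Lpl and 8.12% without it in week 5 replicate 1, and in 26.0% and 4.07% in week 5 replicate 2. Lgals3, the gene of galectin 3, was found in 21.4% and 5.60% of them in week 5 replicate 1 and in 25.0% and 2.52% in week 5 replicate 2. The purinergic receptor P2ry12, high in resting microglia, was found in 27.3% of cells with Lpl and 65.0% without it in week 5 replicate 1, and in 35.4% and 61.0% in week 5 replicate 2. Tmem119 was found in 13.4% and 46.6% and in 19.8% and 43.6%. The chemokine receptor gene Cx3cr1 was common in both, at 86.1% and 90.5% in week 5 replicate 1 and 83.3% and 85.1% in week 5 replicate 2. The interferon-induced Ifit3 was found in 6.95% of cells with Lpl and 7.0% without it in week 5 replicate 1, and in 5.21% and 5.05% in week 5 replicate 2.

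P2ry12 was found in 11.4% of cells with Fabp5 and 64.4% without it in week 5 replicate 1, and in 26.3% and 59.5% in week 5 replicate 2. Cst7, the gene of cystatin F, was found in 49.6% and 14.1% of them in week 5 replicate 1 and in 28.9% and 2.33% in week 5 replicate 2. The contrast was smaller for Plin2: P2ry12 was found in 35.6% of cells with Plin2 and 59.1% without it in week 5 replicate 1, and in 43.5% and 58.8% in week 5 replicate 2. Spp1 was found in 30.1% and 13.9% of them in week 5 replicate 1 and in 8.70% and 6.55% in week 5 replicate 2. No test of these differences was made.

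Across 24 sums of cluster and library with at least 30 cells, the genes most like Lpl by Pearson correlation of log2(CPM + 10), among 8754 genes, were Itgax (0.95), Igf1 (0.93), Nceh1 (0.93), Clec7a (0.92) and Rab7b (0.91). Nceh1 encodes a cholesteryl ester hydrolase of macrophages. Those most like Fabp5 were Apoc1 (0.97), Igf1 (0.97), Cst7 (0.95), Cxcl14 (0.94) and Fabp3 (0.94). Among those most like Plin2 were Flt1 (0.87), Clec7a (0.87), Pabpc1 (0.87) and Spp1 (0.85). With Lpl itself, Fabp5 had a correlation of 0.89, Fabp3 0.81, Plin2 0.79, Plin3 0.52, Pnpla2 0.16 and Dgat1 -0.54. Several sums hold few UMIs of Dgat1, such as 2 in each week 5 library of cluster 4 and 1 in cluster 7 of week 5 replicate 2. Its correlation is therefore open to counting error. The sums share libraries and differ in depth, so the correlations describe likeness and carry no p.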

How the data were processed

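As deposited by the authors, each of 4 tables held UMI counts as whole numbers for 1000 barcodes, with no normalization that the values show. The submitters' processing notes list STAR, Cell Ranger 3.0.0, Seurat 4 and build mm10 of the mouse, without roles. The choice of barcodes and genes before deposit is not stated in those notes or the labels. Genes absent from 1 table counted as 0 in it.

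Of 4000 barcodes, 272 had fewer than 500 genes or over 10% mitochondrial UMIs. Scrublet (scanpy 1.11.5) called 21 of the remaining 3728 doublets (0.563%), and 3707 were used. UMIs were summed per library and tested in R 4.3.3 with edgeR 4.0.16 (TMM, filterByExpr, glmQLFit and glmQLFTest, group as the only term). The SE is the absolute log2 fold change divided by the root of the F statistic. DESeq2 1.42.0 and limma 3.58.1 (voom) were alternatives, beside other scalings, gene and cell filters, thinning, each library left out in turn and the replicate number as a block. In 5 simulated data sets of 11016 to 11048 genes, 200 genes were changed, all with a mean level of at least 5 in log2 CPM. There edgeR recovered 51.4% of 2-fold and 99.4% of 4-fold changes between these groups, with 7.5% of calls false. Dgat1, Plin3, Fabp3 and many of the related genes lay below that level, so these rates do not cover them. The replicate numbers shared by the groups were checked: deviations of the same-numbered libraries had a correlation of -0.038 over 11247 genes, so the numbers were not taken to pair libraries.

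Clustering used 2000 variable genes without the 7 genes or the related lists, 30 principal components, 15 neighbours and Leiden resolution 1 (0.5 and 2 as alternatives). Leading genes were ranked by fold with a pseudocount of 10 CPM. A cluster took the name of a class other than microglia with at least 2 of its markers among the 10 leading genes, more than any other class and at least 3 detected, if their summed level was at least 10% of that of the microglia markers. It was microglia-like where no other class had 2 markers there or more than microglia, and summed microglia markers were at least 10 times those of any other. Other clusters stayed unnamed, among them cluster 9 (2 astrocyte markers, summed level too low) and cluster 12 (neutrophil and T or NK cell markers tied). That naming rule was set after the clusters were seen. The members, lists, markers and tests were chosen with earlier results of these data known. Named were the 7 genes, and in each list those past the threshold or else the 2 with the highest mean level. For likeness, the 5 nearest genes were named, except 1 that is not reported here.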

Additional observations from a re-analysis of the deposited data

How the results depend on the processing

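Of the 7 genes, 3 to 6 were called in each of 14 alternatives, 4 in most. Lpl, Fabp5 and Plin2 passed in all of them, and Fabp3 in 12 of the 13 that tested it, failing with limma-voom (log2 fold change 4.75, adjusted p of 0.221). Thinning left Fabp3 and Plin3 untested. Plin3 passed without the filter on low counts (1.12, adjusted p of 0.00382). The log2 fold change of Dgat1, -0.038, was -0.19 to 0.097 with a library left out, and its sign also turned in microglia-like cells (0.042), with no cell filter (0.046) and in thinned cells (0.10), and before thinning its share of cells differed by 0.80 percentage points the other way. All genes called numbered 302, but 918 without the gene filter, 501 under a common limit of 2996 genes per cell, and 265 to 1341 with a library left out, where a lone library is assumed to vary like the other group. With library size as the only scaling, 76.6% of calls were upward in place of 90.7%, and the median of all genes was -0.24 in place of -0.01 (log2). Under the common limit Lpl was 17-fold higher and Fabp5 73.8-fold. Related genes called numbered 0, but 1 with library size only, 7 without the gene filter, 1 with the replicate block, 2 in microglia-like cells, 1 under the common limit, 2 in all clusters rich in microglia markers (chosen after seeing the data), and 0 to 12 with a library left out. Without the gene filter, 102 related genes and 15953 genes in all were tested. With the replicate block, 379 genes and the same count of 4 of the 7 were called. Pairs found together in both week 5 libraries numbered 3 of 6, but 19 of 21 before thinning, 5 of 6 with at least 2 UMIs, 1 of 3 in microglia-like cells, 1 of 3 without the Spp1-led cluster (chosen after seeing the data), and 4 to 13 in each week 5 library alone. At the 2 other clustering resolutions, 4 and 3 of the 7 genes were highest in the Spp1-led cluster. The causes were not tested. Shares of cells for Fabp3 and Dgat1 rest on few UMIs, and depth limits them.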
